A study of Arabidopsis thaliana with 12 samples.

Results

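The genes described here are the NAC transcription factors of Arabidopsis thaliana, as far as the deposited expression table names them by number. A row counted as a member when one of its names was NAC or ANAC followed by digits, with capital letters, and 1 of the 63 rows that match was left out by definition. This left 62 rows of the 32705 in the table. The choice rests on names and not on measured values, and it does not take in the whole family: a further 36 rows have a NAC number in RefSeq but stand in the table under another name or in lower case, and are not members.

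Polyadenylated RNA of 10-day-old seedlings was sequenced in 4 groups of 3 libraries, 12 in all. All groups were of the Columbia ecotype and carried tfIIs-1, an insertion in the gene of TFIIS, the factor that lets stalled RNA polymerase II resume transcription. One line also carried an estradiol-inducible gene for GFP-TFIISmut, a mutated form of the protein, and the other one for GFP-TFIIS. The groups were TFIISmut induced (2 mM estradiol for 24 h, the concentration as the labels state it), TFIISmut mock (ethanol for 24 h), TFIIS induced and TFIIS mock, with the same 2 treatments. How many independent transformants stand behind a line was not given in the sources used here. No group without a transgene was used, so a line and its insertion event cannot be told apart.

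NAC proteins are a plant-specific family that binds DNA through a conserved amino-terminal NAC domain and regulates transcription through a variable carboxy-terminal part. Several members end in a membrane-spanning segment, which holds them at the endoplasmic reticulum or another membrane until stress leads to their release and entry into the nucleus. Others control the boundary between organs, the thickening of secondary walls in xylem, responses to drought and abscisic acid (ABA), and leaf senescence.

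The table gives 1 value per gene and condition, taken to be FPKM, a fragment count divided by transcript length and by library size. The 3 libraries of a group were thus combined by the authors. No replicate error can be attached to any level, and no test against the spread between seedlings was possible. Column names were read as construct and hours of estradiol, which no label spells out. Differences are given on the log2(FPKM + 1) scale, which understates those of genes with low levels. By the rule of size used here, a gene was called higher or lower when that difference was at least 1 and the larger level at least 5 FPKM, with neither level listed at 0. The induced gene, TFIIS, stood at 87.0 FPKM in TFIISmut induced against 17.6 FPKM in TFIISmut mock, and at 742 FPKM in TFIIS induced against 21.1 FPKM in TFIIS mock, so the lines differed in how strongly the transgene came on. The pools held 13671 to 13939 rows at 5 FPKM or more. Of the leaf markers, LHCB1.1 was listed at 0 in the TFIISmut mock pool alone, which can be a failed estimate. The library depth is unknown.

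NAC genes ranged from a listed 0 to 211 FPKM in these seedlings. Of the 62 members, 5 were listed at 0 in all pools, among them NAC012 and NAC066, activators of secondary wall thickening. A sixth, NAC006, was listed at 0 in both induced pools. In all, 18 members stayed below 1 FPKM in every pool, 18 had their highest level between 1 and 5 FPKM, and 26 reached 5 FPKM in a pool. These 26 are 41.9% of the members, near the 45.7% of all rows used that did so. The 62 members summed to 784 FPKM in TFIISmut induced, 482 FPKM in TFIISmut mock, 511 FPKM in TFIIS induced and 525 FPKM in TFIIS mock. The sum over all rows differed between pools, and the members made up 0.0742%, 0.0500%, 0.0498% and 0.0583% of it in the same order. Without NAC081, the most abundant member in each pool, the sums were 573, 408, 428 and 442 FPKM in the same order, so the TFIISmut induced pool was highest with and without it. NAC102, a relative of NAC081, came second by mean level, at 79.5 FPKM in TFIISmut induced, 69.5 FPKM in TFIISmut mock, 80.5 FPKM in TFIIS induced and 80.1 FPKM in TFIIS mock. Next in order were ANAC083, a repressor of xylem vessel differentiation, at 46.5 to 57.2 FPKM over the pools, and NAC002 (ATAF1), an ABA-related regulator, at 30.7 to 33.3 FPKM.

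**Figure D1:**
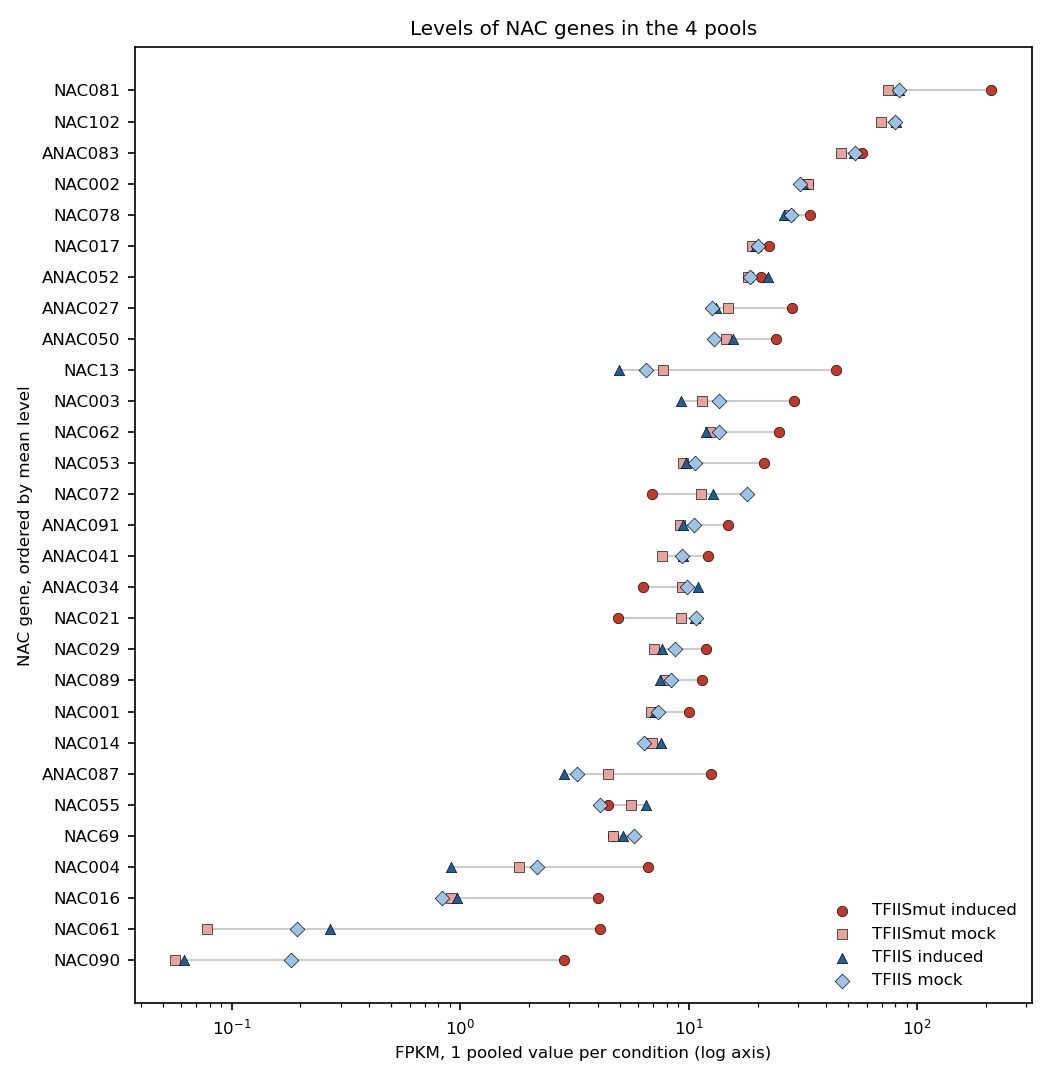
Levels of the 26 NAC genes that reached 5 FPKM in a pool, with NAC016, NAC061 and NAC090 added, ordered by mean level. Each symbol is the authors' 1 pooled FPKM value of a condition on a log axis, and the grey line spans the 4 values. NAC081 at 211 FPKM and NAC13 at 44.2 FPKM in TFIISmut induced lie apart from their other 3 values.

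Induction of the mutated protein came with higher levels of a subset of NAC genes, and with none called lower. For TFIISmut induced against TFIISmut mock, 6 members were called higher, 24% of the 25 that met the level minimum, where 5.51% of all 14456 such rows were called higher. None was called lower, where 1.69% of all rows were. The median difference was 0.48 over these 25 members and 0.05 over all such rows. Because a gene can meet the minimum through the pool where it is high, the same was read without it: over the 56 members above 0 in both pools the median difference was 0.15, with 9 at 1 or more, 16.1%, and 0 at -1 or less. Over all 23180 such rows the median was 0.02, with 4.42% at 1 or more and 1.23% at -1 or less, so 0 of 56 is close to the background. Of the 25 members that met the minimum, 19 lay above 0, 76%, against 55.2% of all such rows. Of the 6, ANAC087 and NAC004 met the minimum through the induced pool alone.

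NAC13 (ANAC013, AT1G32870; TAIR10.1 chromosome 1, 11911631 to 11913947, plus strand), a membrane-tethered activator of nuclear genes for mitochondrial stress, differed most. It stood at 44.2 FPKM in TFIISmut induced, 7.72 FPKM in TFIISmut mock, 4.97 FPKM in TFIIS induced and 6.48 FPKM in TFIIS mock. The first of these is 5.73 times its own mock, a log2 difference of 2.38, while the other 3 pools lie close together. NAC017, the other tethered factor known from mitochondrial signalling, stood at 22.4 FPKM in TFIISmut induced, 18.9 FPKM in TFIISmut mock, 19.7 FPKM in TFIIS induced and 20.001 FPKM in TFIIS mock. Its log2 difference in the TFIISmut line was 0.23, so the 2 factors of this group did not move alike. The last 20 bases of the NAC13 gene overlap AT1G32880 on the other strand, a row at 2.94 FPKM in TFIISmut induced against 0.292 FPKM in TFIISmut mock. Whether the authors' counting used strand was not given in the sources used here, and the part of this overlap was not tested.

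NAC053 and NAC078 are tethered factors that activate proteasome genes when the proteasome fails. NAC053 (AT3G10500) stood at 21.3 FPKM in TFIISmut induced, 9.42 FPKM in TFIISmut mock, 9.75 FPKM in TFIIS induced and 10.7 FPKM in TFIIS mock, and was called higher in the TFIISmut line with a log2 difference of 1.097. Its call lies near the limit: after organelle rows were removed and each pool set to the same sum, the difference was 0.97, and against TFIIS mock it was 0.93. NAC078 (AT5G04410) was more abundant, at 34.1 FPKM in TFIISmut induced and 27.4 FPKM in TFIISmut mock, a log2 difference of 0.30, and at 26.0 FPKM in TFIIS induced and 28.1 FPKM in TFIIS mock.

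Among the 8 other tethered members, 5 reached 5 FPKM in a pool, 4 of them in this comparison, and none was called. NAC062 (NTL6, AT3G49530), which is released under cold and endoplasmic reticulum stress, came closest, at 24.7 FPKM in TFIISmut induced, 12.4 FPKM in TFIISmut mock, 11.9 FPKM in TFIIS induced and 13.5 FPKM in TFIIS mock. Its level was 2.00 times that of the mock, but its log2(FPKM + 1) difference of 0.95 lay just below 1. ANAC091, a protein found as a partner of a viral coat protein, had a difference of 0.65, and NAC089, a factor of endoplasmic reticulum stress, of 0.47. NAC014 stood at 6.43 FPKM in TFIISmut induced and 6.93 FPKM in TFIISmut mock, and NAC69 at 4.67 and 4.68 FPKM in the same order. NAC016, known as a promoter of leaf senescence, was at 4.01 FPKM in TFIISmut induced, 0.907 FPKM in TFIISmut mock, 0.970 FPKM in TFIIS induced and 0.830 FPKM in TFIIS mock. This is 4.42 times its own mock, with a log2 difference of 1.39, at a level below the minimum for a call.

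NAC081 (ATAF2, AT5G08790; TAIR10.1 chromosome 5, 2858849 to 2860558, minus strand) belongs to the ATAF group, which responds to wounding, pathogens and ABA. It stood at 211 FPKM in TFIISmut induced, 74.2 FPKM in TFIISmut mock, 83.2 FPKM in TFIIS induced and 83.1 FPKM in TFIIS mock, a log2 difference of 1.49 in the TFIISmut line. The level after induction of the mutated form is 2.84 times its mock, and the other 3 pools differ little. Its overlapping neighbour on the other strand, AT5G08780, stood at 5.12 FPKM in TFIISmut induced and 5.26 FPKM in TFIISmut mock. The 2 other ATAF members did not pass the rule: NAC002 had a log2 difference of -0.00 and NAC102 of 0.19.

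NAC061 and NAC090 are close relatives whose coding sequences match at 75.1% of 696 aligned bases. NAC090 has been tied to the salicylic acid response and to the timing of senescence. NAC061 (AT3G44350) stood at 4.07 FPKM in TFIISmut induced, 0.0778 FPKM in TFIISmut mock, 0.270 FPKM in TFIIS induced and 0.192 FPKM in TFIIS mock. NAC090 (AT5G22380) stood at 2.85 FPKM in TFIISmut induced, 0.0567 FPKM in TFIISmut mock, 0.0619 FPKM in TFIIS induced and 0.181 FPKM in TFIIS mock. Both were near 0 in 3 pools and above 1 FPKM in the fourth, with log2 differences of 2.23 and 1.86 in the TFIISmut line, the next largest after NAC13 among all members. Neither reached 5 FPKM, so neither was called, and at an unknown depth their mock levels may rest on few fragments. The third member assigned to stress and defence, NAC001, had a difference of 0.48.

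All 3 members assigned to senescence met the minimum, and 1 was called higher, where 5.51% of all such rows were. ANAC087 (AT5G18270), a factor of programmed cell death in the root cap, was called higher, at 12.5 FPKM in TFIISmut induced, 4.41 FPKM in TFIISmut mock, 2.85 FPKM in TFIIS induced and 3.25 FPKM in TFIIS mock, with a log2 difference of 1.31. NAC029 (NAP), a central activator of leaf senescence, had 11.9 FPKM in TFIISmut induced and 7.06 FPKM in TFIISmut mock, a difference of 0.68, and ANAC083 a difference of 0.29. The 4 root cap markers (PASPA3, MC9, DMP4 and SCPL48), set beside ANAC087, summed to 24.9 FPKM in TFIISmut induced, 33.3 FPKM in TFIISmut mock, 37.7 FPKM in TFIIS induced and 34.3 FPKM in TFIIS mock, with none at 0. They were lowest in the pool where ANAC087 was highest. The 2 ABA and drought members that met the minimum lay below 0, and the third, NAC019, at 0.78 with levels below it. NAC072 (RD26), induced by dehydration, stood at 6.92 FPKM in TFIISmut induced, 11.4 FPKM in TFIISmut mock, 12.8 FPKM in TFIIS induced and 17.9 FPKM in TFIIS mock. Its difference was -0.64 against its own mock and -1.25 with TFIIS mock as the control, which passes the rule. The TFIIS mock pool was the highest of the 4 for NAC072, as it was for the ABA-responsive gene RD29A. The part of the state of that pool in the NAC072 value was not tested. NAC055 was at 4.43 FPKM in TFIISmut induced and 5.56 FPKM in TFIISmut mock, a difference of -0.27.

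Of the 13 members to which no role was assigned, 6 met the level minimum and 2 were called higher, where 5.51% of all such rows were. These 6 include the row named ANAC027, described last. NAC003 (AT1G02220) stood at 28.8 FPKM in TFIISmut induced, 11.5 FPKM in TFIISmut mock, 9.21 FPKM in TFIIS induced and 13.5 FPKM in TFIIS mock, a log2 difference of 1.26. NAC004 (AT1G02230) stood at 6.66 FPKM in TFIISmut induced, 1.81 FPKM in TFIISmut mock, 0.908 FPKM in TFIIS induced and 2.16 FPKM in TFIIS mock, a difference of 1.45. In both genes the TFIIS induced pool was the lowest and the TFIISmut induced pool the highest. ANAC050, a partner of the histone demethylase JMJ14, had 24.2 FPKM in TFIISmut induced and 14.5 FPKM in TFIISmut mock, a difference of 0.70, and its sister ANAC052 a difference of 0.18. The row named ANAC027, at 28.4 FPKM in TFIISmut induced and 14.8 FPKM in TFIISmut mock, is shared with AT1G64100, to which its identifier belongs. RefSeq places NAC027 at AT1G64105, on the same strand and overlapping by 514 bases, so the value cannot be given to the NAC gene.

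Of the 6 members assigned to organ boundaries and lateral roots, and the 1 to flowering time, none passed the rule against its own mock. NAC021 (NAC1, AT1G56010), which promotes lateral root formation downstream of auxin, stood at 4.91 FPKM in TFIISmut induced, 9.29 FPKM in TFIISmut mock, 10.7 FPKM in TFIIS induced and 10.8 FPKM in TFIIS mock, a difference of -0.80, the lowest of all members. ANAC080, a relative, stood at 1.40 FPKM in TFIISmut induced, 3.17 FPKM in TFIISmut mock, 4.46 FPKM in TFIIS induced and 3.87 FPKM in TFIIS mock, also -0.80. ANAC034 (LOV1), a repressor of flowering, had 6.29 FPKM in TFIISmut induced and 9.34 FPKM in TFIISmut mock, a difference of -0.51. NAC021 overlaps AT1G56000 on the other strand by 148 bases, a row at 4.47 to 5.44 FPKM, and AT1G08087 by 809 bases. ANAC034 overlaps AT2G02455 by 808 bases, also on the other strand. The part of these overlaps was not tested. NAC021, ANAC080 and ANAC034 each had their lowest level in the TFIISmut induced pool. The 4 root markers (CASP1, PHT1;1, COBL9 and SCR) were also lowest there: they summed to 29.7 FPKM in TFIISmut induced, 46.1 FPKM in TFIISmut mock, 51.1 FPKM in TFIIS induced and 48.5 FPKM in TFIIS mock, none was at 0, and the 3 that met the minimum lay below 0. The leaf markers PSAN, RBCS1B and RCA, of photosynthesis, had differences of -1.14, -1.04 and -0.96. The 3 phloem markers (SUC2, APL and SEOR1) summed to 66.1 FPKM in TFIISmut induced, 95.7 FPKM in TFIISmut mock, 87.9 FPKM in TFIIS induced and 88.6 FPKM in TFIIS mock. They did not move alike: against TFIISmut mock their differences were -0.78, -0.46 and -0.03. SEOR1 was higher in TFIISmut induced than in both TFIIS pools. The part of all these markers in the lower NAC levels was not tested. In whole seedlings, fewer cells of a type and less RNA per cell cannot be told apart. The cup-shaped cotyledon genes NAC054, NAC098 and NAC031, which set organ boundaries, stayed below 1 FPKM in every pool.

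None of the 13 secondary wall and xylem members reached 5 FPKM, so none could be called. Of the 7 vessel factors (VND1 to VND7), NAC030 (VND7), the inducer of protoxylem vessels, was at 1.24 FPKM in TFIISmut induced, 1.15 FPKM in TFIISmut mock, 1.21 FPKM in TFIIS induced and 1.42 FPKM in TFIIS mock. NAC007 (VND4) was at 1.64, 2.45, 1.89 and 2.43 FPKM in the same order, and NAC026 (VND5) at 0.641, 1.24, 1.02 and 1.29 FPKM. In 5 of the 7, NAC076, NAC101 and NAC105 besides these last 2, both induced pools lay below both mock pools, an order noticed after the values were seen. It held in 13.2% of all rows above 0 in the 4 pools. The levels of the 5 were at most 2.65 FPKM, and in NAC101 the nearest induced and mock pools were 1.94 and 1.95 FPKM. The highest level in this group was that of NAC010 (SND3), at 3.29 FPKM in TFIISmut induced against 1.61 FPKM in TFIISmut mock, a difference of 0.72. The 3 phloem members NAC045, NAC086 and ANAC020 stayed below 1 FPKM. NAC045 overlaps AT3G03190 on the other strand by 1096 bases, a row at 8.21 to 13.2 FPKM, so its low value is uncertain.

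**Figure D2:**
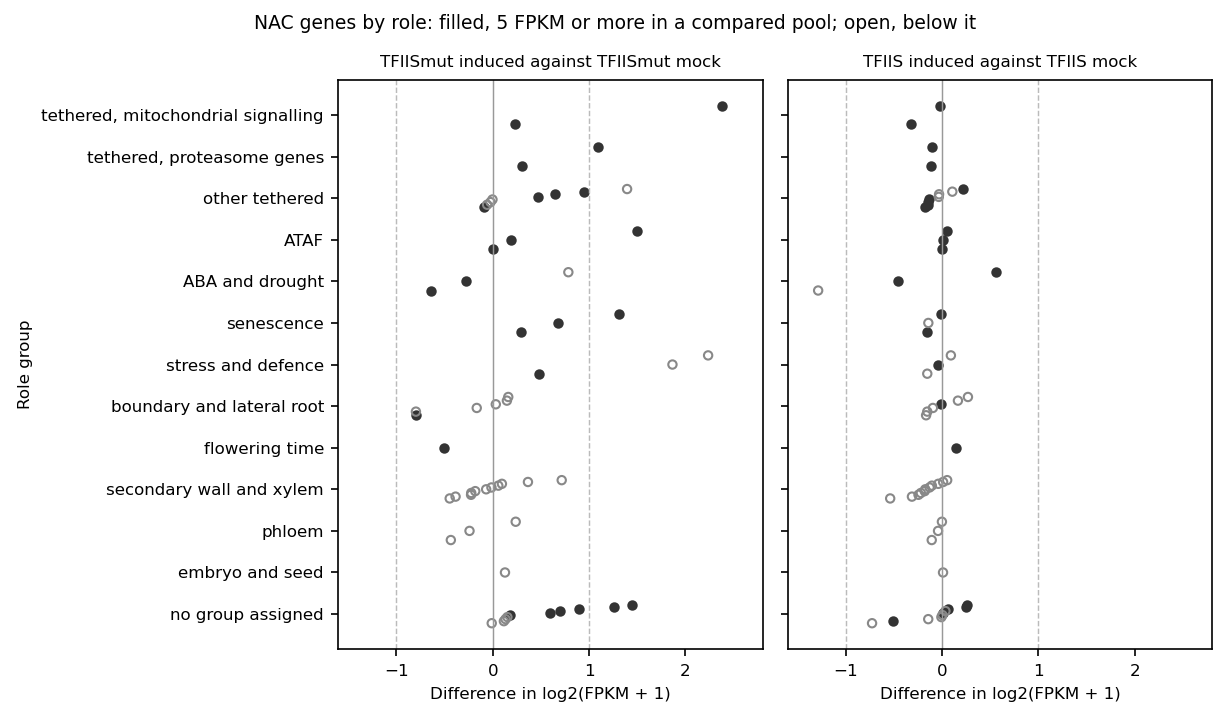
Difference in log2(FPKM + 1) of each NAC gene on induction, by role group, for TFIISmut induced against TFIISmut mock on the left and TFIIS induced against TFIIS mock on the right. Filled points reached 5 FPKM in a compared pool, open points did not, and genes listed at 0 in a compared pool are not drawn. Filled points lie past 1 in 5 groups on the left and in none on the right.

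Expression of the intact protein under the same treatment came with small differences. For TFIIS induced against TFIIS mock, 0 of 24 members that met the minimum were called higher and 0 lower, where 0.69% and 0.789% of all 14203 rows were. The median difference was -0.01 over these members, with a range of -0.51 to 0.56, and 0.02 over all rows. The highest belonged to NAC055 (AT3G15500), a regulator of ABA and jasmonate responses, at 6.48 FPKM in TFIIS induced against 4.09 FPKM in TFIIS mock. The lowest belonged to NAC003. Below the minimum, NAC019 (AT1G52890), a close relative of NAC055 with 79.7% identity of coding bases, had a difference of -1.29. It stood at 2.38 FPKM in TFIISmut induced, 0.960 FPKM in TFIISmut mock, 0.922 FPKM in TFIIS induced and 3.69 FPKM in TFIIS mock. The TFIIS mock pool is the high one for this gene. With TFIISmut mock as the control for TFIIS induced, 0 members were called higher and 0 lower as well. The ABA-responsive gene RD29A was likewise highest in that pool, at 115 FPKM against 12.2 to 19.1 FPKM in the other 3. The part of the state of that pool in the NAC019 value was not tested.

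Between the uninduced lines, NAC levels were close. For TFIISmut mock against TFIIS mock, 0 of 24 members were called higher and 0 lower, where 0.248% and 0.787% of all 14113 rows were. The median difference was -0.10 and the range -0.61 to 0.37, while the median of all rows was 0.01. Of the 24, 18 lay below 0 and 6 above it, 25%, against 52.3% of all such rows above 0. Most members were thus slightly lower in TFIISmut mock, the control of the first comparison. NAC072 had the lowest value and NAC055 the highest.

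When both lines had received estradiol, the calls lay in the same direction. For TFIISmut induced against TFIIS induced, 8 of 26 members were called higher, 30.8%, where 5.34% of all 14619 rows were. Without the ANAC027 row, whose value cannot be given to the NAC gene, 7 of 25 were called higher. None was called lower, where 2.57% of all rows were. Of the 8, NAC13, NAC004 and ANAC087 were below 5 FPKM in TFIIS induced, so these 3 met the minimum through the TFIISmut induced pool alone. Without the minimum, 11 of 56 members differed by 1 or more, 19.6%, and 1 by -1 or less, against 4.30% and 1.94% of all 23141 rows above 0 in both pools. With organelle rows removed and the same sum in each pool, 5 were higher and 1, NAC021, was lower. This comparison shares its TFIISmut induced pool with the first one, so the 2 are not independent. NAC13 was at 8.90 times its TFIIS induced level, a log2 difference of 2.92, NAC004 at 7.34 times, with 2.01, and ANAC087 at 4.38 times, with 1.81. NAC003 had a difference of 1.55, NAC081 of 1.33, NAC053 of 1.05, and the shared ANAC027 row of 1.05, while NAC062 lay just above the limit of 1. NAC021 was the lowest member that met the minimum, at -0.98, and below it in level ANAC080 had -1.18.

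**Figure D3:**
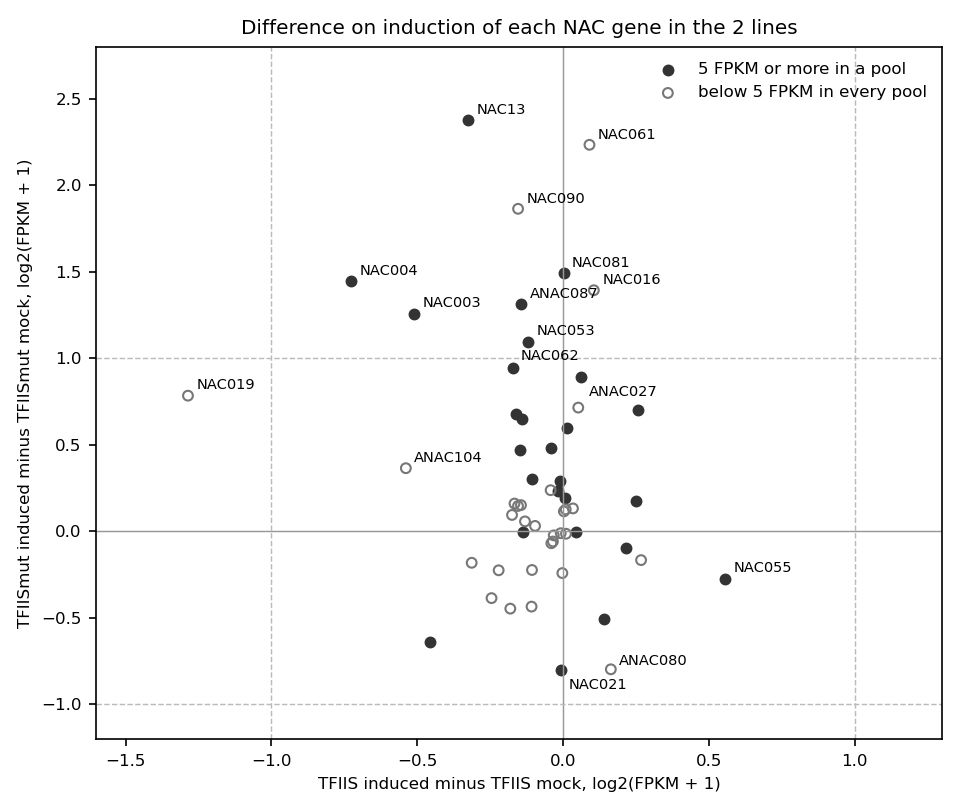
Each point is 1 NAC gene above 0 in all pools, with its log2(FPKM + 1) difference on induction of TFIISmut on the vertical axis and of TFIIS on the horizontal axis. Filled points reached 5 FPKM in a pool and dashed lines mark differences of 1 and -1. NAC13 lies at 2.38 on the vertical and -0.33 on the horizontal axis, and NAC019 is the point past -1 in the TFIIS line.

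Several NAC genes lie beside each other, and neighbours did not share one response. On chromosome 1, NAC016 (12448543 to 12451287) ends 117 bases before NAC017 (12451405 to 12454542) on the same strand, with 82.6% identity over 1626 aligned coding bases. NAC017 was the more abundant in all 4 pools, yet NAC016 differed more in the TFIISmut line, by 1.39 against 0.23. NAC003, NAC004 and NAC005 lie on the minus strand of the same chromosome between 428650 and 439559. NAC003 and NAC004, 81.8% identical, were both called higher, while NAC005 stayed at or below 0.143 FPKM. On chromosome 3, ANAC050, ANAC052 and NAC053 lie head to tail between 3264194 and 3274176. ANAC050 and ANAC052 are the most alike of these neighbours, at 89.9% identity, and reads may have been split between them, so their separate values are uncertain. Their differences in the TFIISmut line were 0.70 and 0.18, and that of NAC053, with 60.3% identity to ANAC052, was 1.097. NAC68 and NAC69 on chromosome 4, both tethered, had differences of -0.06 and -0.00.

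**Figure D4:**
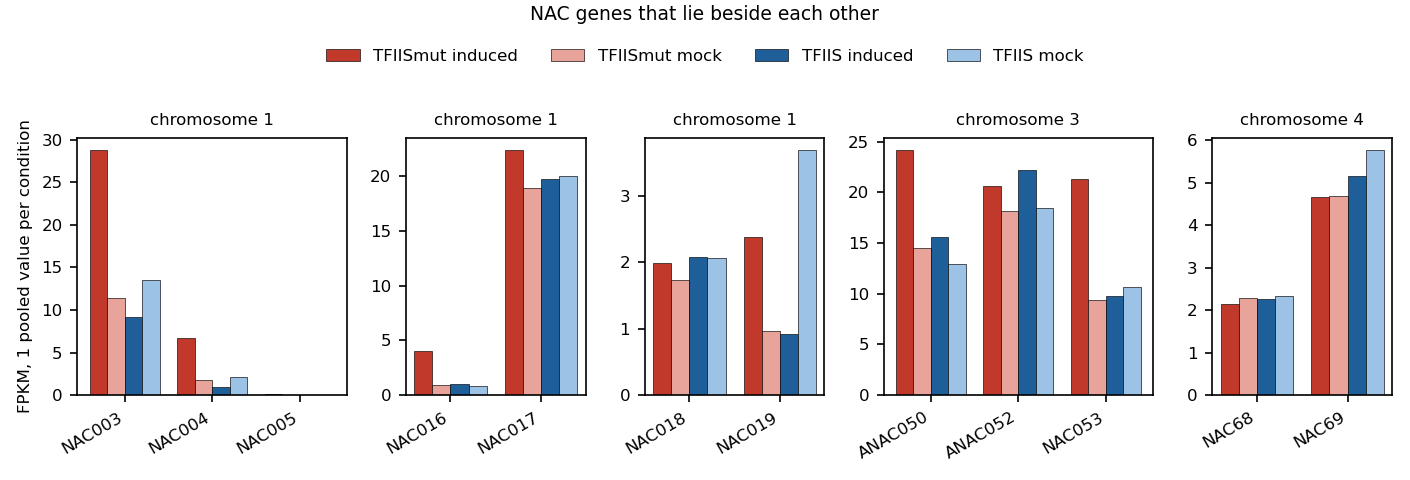
FPKM of NAC genes that lie within 10000 bases of another member, 1 pooled value per condition and bar, with a separate linear axis from 0 in each panel. NAC003 and NAC004 are both highest in TFIISmut induced, at 28.8 and 6.66 FPKM, while NAC017 beside NAC016 lies between 18.9 and 22.4 FPKM in all pools.

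The 1000 bases before each annotated start were searched on both strands for the W-box, the binding site of WRKY factors, in the forms TTGACC and TTGACT. They were read from TAIR10.1 by gene identifier, because the build of the deposited table was not given in the sources used here, and all 62 deposited loci overlap the TAIR10.1 gene of the same identifier. At least 1 W-box was found before 41 of 62 members, 66.1%, and before 67.3% of all 27443 protein-coding genes. For the 10 members with a difference above 1 in the TFIISmut line, or 0.95 in the case of NAC062, a set picked after their values were seen, it was found before 8 and missing before ANAC087 and NAC016. Since most genes carry these 6 letters by this measure, the matches describe the promoters and set the members apart from nothing. The stretches around them are shown for 6 of these members, because they are the upstream DNA of genes with large differences. The match before NAC053 is not shown, since it lies in the coding sequence of its neighbour ANAC052. The 3 matches before NAC062 are left out as well. The stretches are written in the direction of the gene, with the W-box or its reverse complement in capitals and 20 bases on each side, on TAIR10.1.
NAC13, chr1:11910729-11910774, plus strand: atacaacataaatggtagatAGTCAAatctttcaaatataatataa
NAC081 copy 1, chr5:2861502-2861547, minus strand: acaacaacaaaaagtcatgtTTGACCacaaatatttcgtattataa
NAC081 copy 2, chr5:2860912-2860957, minus strand: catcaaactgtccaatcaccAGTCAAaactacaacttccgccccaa
NAC003, chr1:431422-431467, minus strand: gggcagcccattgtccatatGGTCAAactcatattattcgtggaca
NAC004, chr1:437746-437791, minus strand: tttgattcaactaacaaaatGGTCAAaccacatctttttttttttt
NAC061, chr3:16024750-16024795, minus strand: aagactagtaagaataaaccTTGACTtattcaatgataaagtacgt
NAC090 copy 1, chr5:7410895-7410940, minus strand: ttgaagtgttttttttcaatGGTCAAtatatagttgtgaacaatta
NAC090 copy 2, chr5:7410312-7410357, minus strand: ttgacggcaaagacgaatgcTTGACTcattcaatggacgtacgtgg

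A W-box lies 256 to 251 bases before the start of NAC061 and 235 to 230 bases before that of NAC090, in the same orientation in both. That of NAC003 lies 727 to 722 bases and that of NAC004 849 to 844 bases before the start, each as a reverse complement. The G-box CACGTG, a site of ABA-responsive and other leucine zipper factors, was found before 13 of 62 members, 21.0%, and before 14.8% of all genes. It reads the same on both strands and can share at most 1 base with a W-box. NAC019 had 4 such matches and NAC072 had 2.

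The mitochondrial dysfunction motif, to which NAC13 itself binds, was searched in the forms CTTGNNNNNCAAG and CTTGNNNNNCACG on both strands. A W-box could overlap it. It was found before 4 of 62 members, 6.45%, and before 4.39% of all genes. NAC13 had no match in this window, and neither had the other 9 of the set of 10. The members with a match were NAC010, NAC017, NAC045 and ANAC050. The stretches before NAC017 and ANAC050, the 2 of these above 5 FPKM, are shown with the motif or its reverse complement in capitals and 20 bases on each side, and the one before NAC017 begins in the last exon of NAC016.
NAC017, chr1:12451275-12451327, plus strand: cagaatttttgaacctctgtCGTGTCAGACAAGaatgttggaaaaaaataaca
ANAC050, chr3:3263258-3263310, plus strand: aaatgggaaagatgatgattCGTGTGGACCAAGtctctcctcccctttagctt

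The genes that NAC factors are known to act on were read beside them, from 5 lists assembled from background knowledge with earlier results of these data known. They are thus no independent support. All 10 listed genes of mitochondrial signalling were called higher in TFIISmut induced against TFIISmut mock, where 5.51% of all rows that met the minimum were. Their median difference was 2.82. Of the 10, OM66, AT12CYS-2, NDB4 and AOX1D were below 5 FPKM in TFIISmut mock and met the minimum through the induced pool alone. In the TFIIS line only 6 of the 10 met the minimum, and none of these was called. NDB4, an alternative NADH dehydrogenase, was at 32.4 FPKM in TFIISmut induced, 0.939 FPKM in TFIISmut mock, 0.322 FPKM in TFIIS induced and 0.398 FPKM in TFIIS mock. The alternative oxidase AOX1D was at 19.6, 0.342, 1.01 and 0.728 FPKM in the same order. UPOX1, a mitochondrial protein upregulated by oxidative stress, was at 381, 29.9, 21.1 and 18.8 FPKM. In this list the TFIISmut induced pool was the highest for each gene, as it was for NAC13.

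The 8 proteasome genes had a median difference of 0.32 in the TFIISmut line, with 7 above 0 and none called. RPT2A was at 196 FPKM in TFIISmut induced and 125 FPKM in TFIISmut mock, a difference of 0.65, RPN12A had 0.57 and RPN10 had 0.43. Of 8 senescence genes found in the table, 4 met the minimum and none was called in the TFIISmut line. The chlorophyll breakdown gene NYE1 came closest, at 18.1 FPKM in TFIISmut induced and 8.85 FPKM in TFIISmut mock, a difference of 0.96, while NYC1, also of chlorophyll breakdown, had -0.77. In the TFIIS line, 6 genes of this list met the minimum and 2 were called lower, where 0.789% of all such rows were. SWEET15, a sugar transporter, had 0.446 FPKM in TFIIS induced and 15.3 FPKM in TFIIS mock. SAG113, a phosphatase of ABA signalling, had 1.40 FPKM in TFIIS induced and 13.3 FPKM in TFIIS mock. Both were high in the TFIIS mock pool, as NAC019 was. Among 5 genes of the ABA, drought and defence list, 4 met the minimum in the TFIISmut line. Of these, 1 was called higher, where 5.51% of all such rows were. This was ICS1, an enzyme on the way to salicylic acid, with 42.3 FPKM in TFIISmut induced and 8.33 FPKM in TFIISmut mock. VSP1 and RD29A had differences of 0.11 and 0.13 there. In the TFIIS line RD29A was called lower, with a difference of -2.53. The 3 secondary wall genes that met the minimum, CESA4, XCP2 and XCP1, lay at -0.54, -0.39 and -0.28, and none was called.

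**Figure D5:**
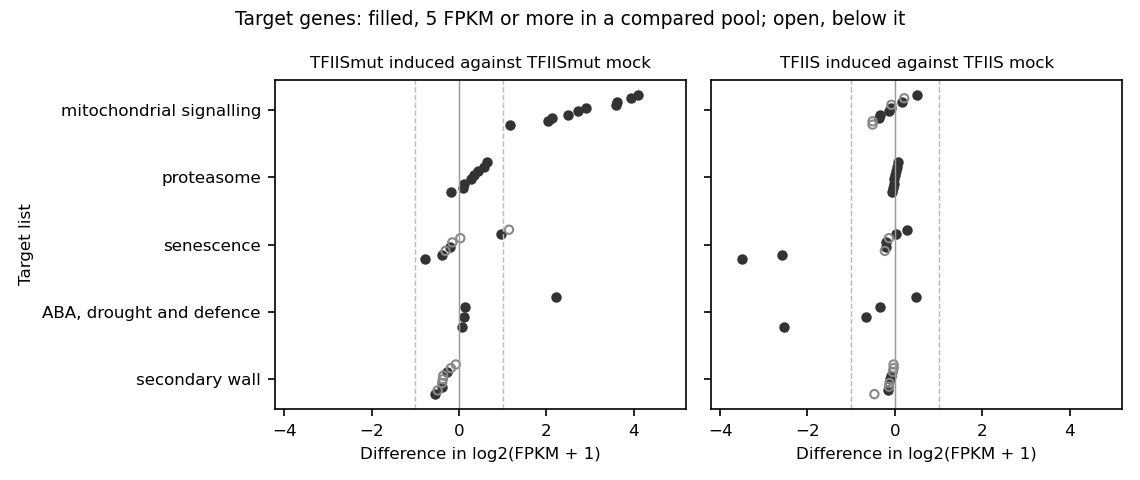
Difference in log2(FPKM + 1) of listed target genes on induction, for TFIISmut induced against TFIISmut mock on the left and TFIIS induced against TFIIS mock on the right. Filled points reached 5 FPKM in a compared pool, open points did not, and genes at 0 in a compared pool are not drawn. All 10 genes of mitochondrial signalling lie beyond 1 on the left, between 1.16 and 4.11.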

How the data were processed

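Libraries were stranded mRNA libraries (Illumina TruSeq) from RNeasy-purified RNA, per the labels' protocols. Bowtie2 2.3.5 appears, without a role, per the submitters' processing notes, whereas quantification tool, build and annotation were not given in the sources used here. Deposited FPKM values are the authors' single value per gene and condition. That unit was inferred from the layout and the values, and how the 3 libraries of a group were combined is unknown. The design foresaw limma for values per library and a size rule for pooled ones, and the size rule was used.

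Dropping 38 rows with one of 19 repeated identifiers left 32667 rows. Differences are in log2(FPKM + 1), the first-named pool minus the second, computed with Python 3.11.15 and pandas 2.3.3. The rule was tried on simulated pools, built from genes at 5 FPKM or more in TFIISmut mock with noise from the spread between the mock pools. This covers neither genes lower there, such as NAC004 and ANAC087, nor the spread between replicates. Depth is unknown, so no interval or detection floor is given. Members were set by name. The 12 role groups with 68 genes (49 of them members) and 9 lists with 56 genes (55 in the table) were chosen with earlier results of these data known. Named genes are those past the size rule, the most abundant and the most different of each role group, the extremes in level, up to 3 genes per target list, and genes singled out after their values were seen. Symbols were matched through the TAIR10.1 table of RefSeq. Coding identity is that of a global alignment of the longest annotated coding sequences, over aligned bases.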

Additional observations from a re-analysis of the deposited data

Results flagged for a closer look

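For 5 members, a call in the TFIISmut line met a difference of the opposite sign in the TFIIS line. With 1 pooled value per condition, the difference between the lines was not tested. NAC13 had 2.38 with TFIISmut and -0.33 with TFIIS, 2.70 apart. NAC004 had 1.45 and -0.73 in the same order, 2.17 apart, and NAC003 had 1.26 and -0.51, 1.77 apart. ANAC087 had 1.31 and -0.14, 1.46 apart, and NAC053 had 1.097 and -0.12, 1.22 apart. The values of ANAC087 and NAC053 in the TFIIS line are small, and NAC004 and ANAC087 stayed below 5 FPKM in both TFIIS pools.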

How the results depend on the processing

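No paired analysis was possible because the table gives 1 pooled value per condition and none per numbered replicate, and no library could be left out. Counts of called members in the 4 comparisons were recomputed under 7 planned settings, under the other mock pool as control for each induction, and without the 20 most abundant genes with the rest rescaled to a common sum, a setting chosen after seeing the data. Of 68 such counts, 59 stayed within 1.5 times, but most of these set 0 beside 0, so this tally says little. For TFIISmut induced against TFIISmut mock, 5 to 9 members were called higher over the settings, against 6. With TFIIS mock as the control for TFIISmut induced, 1 member, NAC072, was lower, against 0. The level of NAC072 was highest in that mock pool. Under this control 6 were called higher, 5 of them among the 6 reported. NAC053 lost its call, and the ANAC027 row, whose value cannot be given to the NAC gene, gained one. With a minimum of 1 FPKM, 1 member was lower, against 0, for TFIIS induced against TFIIS mock and for TFIISmut mock against TFIIS mock (NAC019 in both) and for TFIISmut induced against TFIIS induced (ANAC080). In this last comparison 1 member, NAC021, was lower with a pseudocount of 0.1, against 0. There, too, 5 were higher, against 8, and 1, NAC021, lower, against 0, both with organelle rows left out and rescaled and without the 20 most abundant genes and rescaled. NAC053, NAC062 and the ANAC027 row lost their calls, and their differences were 0.86 to 0.999. Leaving out organelle rows with rescaling moved the median of all rows to -0.15 for TFIIS induced against TFIIS mock, against 0.02, and to -0.08 in the TFIISmut line, against 0.05. Leaving out the 20 most abundant genes moved it to -0.12 for TFIISmut induced against TFIIS induced, against 0.03. Levels below 5 FPKM, as of NAC061, NAC090 and NAC016, are the least certain; these 3 were called higher at a minimum of 1 FPKM.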

Other observations

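Of the 36 rows with a NAC number in RefSeq that are not members, 8 met the minimum for TFIISmut induced against TFIISmut mock. Of these, 2 were called higher and 0 lower, where 5.51% and 1.69% of all 14456 such rows were. Both called rows were below 5 FPKM in TFIISmut mock, so they met the minimum through the induced pool alone. NAC036 (AT2G17040) stood at 22.5 FPKM in TFIISmut induced, 2.79 FPKM in TFIISmut mock, 3.48 FPKM in TFIIS induced and 4.14 FPKM in TFIIS mock. NAC042 (JUB1, AT2G43000), a regulator of longevity and stress tolerance, stood at 14.9 FPKM in TFIISmut induced, 2.39 FPKM in TFIISmut mock, 1.38 FPKM in TFIIS induced and 3.57 FPKM in TFIIS mock. In both genes the TFIISmut induced pool was the highest.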
